A study of Arabidopsis thaliana with 36 samples.

Results

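At dawn, transcripts bound to large polysomes were compared with transcripts bound to small polysomes in Arabidopsis thaliana, using 6 of the 36 arrays of a study of polysome-bound RNA over a day. The 3 large polysomal and 3 small polysomal samples of ZT0 were taken by their titles and joined in pairs by replicate number. All were the aerial parts of wild-type Columbia seedlings, 10 days old, raised on agar with full-strength Murashige and Skoog salts and 1% sucrose, with a day of 16 h and a night of 8 h. ZT (Zeitgeber time) counts hours from lights on, so ZT0 is the moment the lights came on. The study's non-polysomal samples of ZT0 and its 9 pairs of large and small polysomal samples at ZT6, ZT12 and ZT18, from the same kind of seedling, served for comparison. Seedlings overexpressing CCA1 belong to the study's design and were not analysed here. The labels do not say how many seedlings made a sample or whether replicates were grown apart, so the p-values cover only the spread among these arrays, which may be technical.

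An mRNA that is being translated carries ribosomes one behind another, and such a string is called a polysome. When RNA is spun through a density gradient, an mRNA with many ribosomes travels further than one with few, and the large and small polysomal fractions hold these classes. How many ribosomes an mRNA carries depends on how often translation starts, how fast ribosomes move and how long the coding sequence is. Chloroplasts and mitochondria have ribosomes and mRNAs of their own. At dawn a seedling passes from living on stored carbon to photosynthesis.

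The values are log2 expression summaries of an Affymetrix array, so a difference of 1 stands for a doubling. Each value is relative to the other transcripts on its array, and the amount of RNA in a fraction is not seen. Genes whose brightest probe set averaged 4 or more on the 36 arrays were tested, which kept 6845 of 13355 genes. Replicate arrays correlated at 0.976 to 0.985 within the 2 polysomal groups of ZT0. Nuclear leaf markers were bright on all 6 arrays, with means of 12.5 to 13.1, and differed by 0.51 ± 0.07 (SD, n = 3 pairs) between fractions. Of 9 listed root markers 1 was tested, PYK10, a beta-glucosidase of ER bodies, at 9.49 to 9.98 in small and 10.0 to 10.9 in large polysomal RNA, although the tissue is labelled aerial. Each sample mixes the cell types of the tissue, so the cells a transcript came from are not seen.

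The mRNA population of large polysomes differed widely from that of small ones. With limma's moderated test and Benjamini-Hochberg adjustment, 1348 genes were higher in large polysomal RNA at an adjusted p under 0.05, 19.7% of those tested, and 1476 were lower, 21.6%. These shares are the background for the counts of every gene list below. Each SE below is limma's moderated one. It comes from the fit of all 36 arrays and is not the spread of a gene's 3 pairs. The median difference of all tested genes was 0.01, and its lower and upper quartiles were -0.41 and 0.38. Differences over 1 were more often downward, with 294 genes higher and 565 lower by that much, and 8 higher and 56 lower by over 2. In 1338 of the 1348 and 1465 of the 1476 genes, all 3 pairs moved the same way. Whatever the replicate numbers, all 3 large polysomal values lay above all 3 small polysomal values in 24.7% of tested genes and below them in 26.0%.

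The freezing tolerance genes COR47, COR15A and COR15B stood high in large polysomes. Of 14 listed cold-regulated genes only these 3 were tested, and all 3 were higher, with a list median of 1.66 against 0.01 for all genes. COR47 (AT1G20440), a dehydrin that protects cells during drying and cold, read 8.28, 8.58 and 8.57 in small polysomal RNA and 10.12, 9.78 and 10.13 in large polysomal RNA. Every large polysomal value was above every small polysomal one, a difference of 1.54 ± 0.19 (SE, n = 3 pairs), or 2.90-fold, with an adjusted p of 4.9e-07 from limma. COR15A (AT2G42540), a stabiliser of chloroplast membranes, read 5.06, 5.05 and 4.31 in small and 6.94, 6.67 and 5.80 in large polysomal RNA, a difference of 1.66 ± 0.21. Its close copy COR15B (AT2G42530) also differed by 1.66, so probe sets of the pair may share signal. COR27 (AT5G42900), a cold-induced gene tied to the clock and outside the list, went the other way and fell by 1.67 ± 0.18, from 7.27, 8.44 and 8.04 to 5.79, 6.34 and 6.61 (limma adjusted p 9.7e-08). In both COR15A and COR27, as in COR47, the fractions did not overlap.

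**Figure D1:**
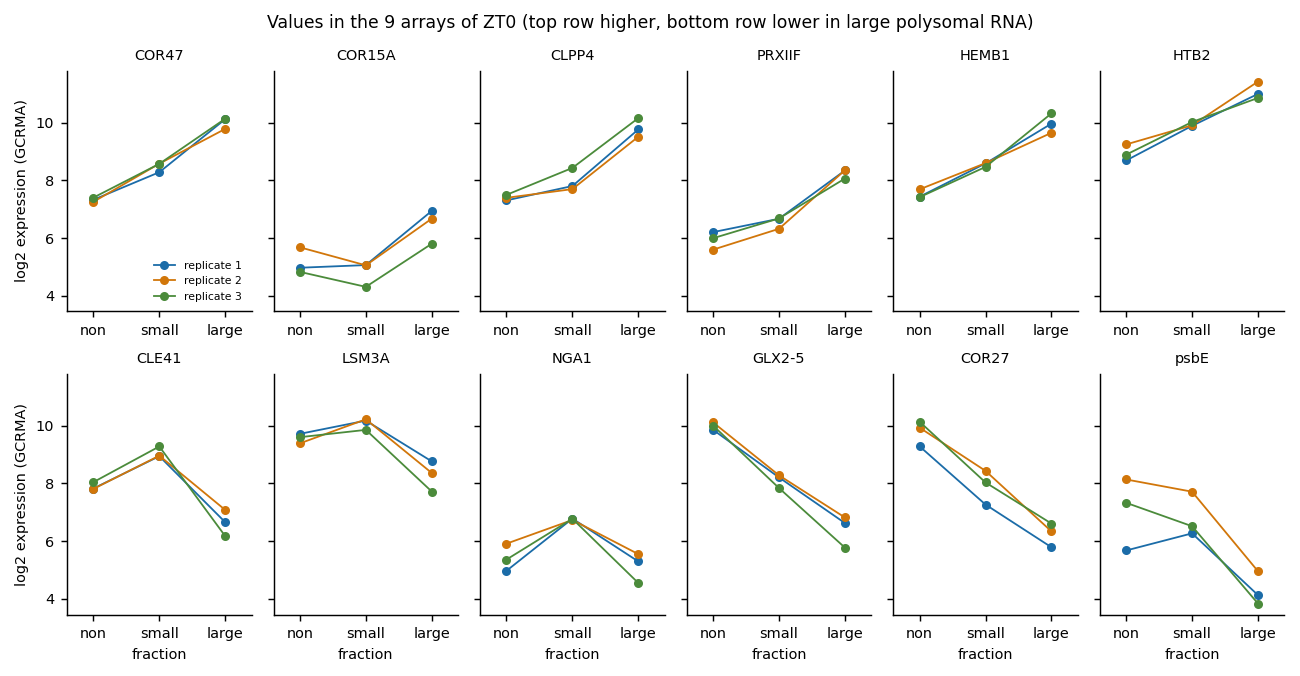
Log2 expression (vertical axis) of 12 genes in the non-polysomal, small polysomal and large polysomal samples of ZT0 (horizontal axis), with 1 line for each replicate number. In the top row all large polysomal points lie above the small polysomal ones, and in the bottom row all lie below.

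Of 4 tested chlorophyll synthesis enzymes 3 were higher in large polysomes, and CHLM was not. HEMB1 (AT1G69740), which makes the pyrrole unit of chlorophyll, read 8.59, 8.59 and 8.46 in small and 9.96, 9.65 and 10.32 in large polysomal RNA, a difference of 1.43 ± 0.18 (SE, n = 3 pairs; limma adjusted p 4.7e-07). PORB (AT4G27440), the light-driven reductase of protochlorophyllide, differed by 0.96 ± 0.19, and GSA1 (AT5G63570), an earlier enzyme of the path, by 0.62 ± 0.22. The fourth tested member, the methyltransferase CHLM (AT4G25080), had -0.40 and an adjusted p of 0.088 from limma, although its 3 large polysomal values lay below its 3 small ones. The list had a median of 0.79. GSA1 was no longer called without replicate 1, without replicate 3, without the replicate block, with all dim genes kept or with cyclic loess scaling. Under that scaling CHLM passed the threshold at -0.53, with a limma adjusted p of 0.018. CHLI2 (AT5G45930), a magnesium chelatase subunit outside the list, rose from 8.74, 8.87 and 9.24 to 9.95, 10.31 and 11.05.

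Of 6 tested nuclear photosystem and electron transport subunits 5 were higher, 0 were lower and the median was 0.60. PSBY (AT1G67740), a small photosystem II protein, read 11.77, 11.73 and 11.97 in small and 12.63, 12.67 and 12.80 in large polysomal RNA, which is 0.88 ± 0.18. PSAN (AT5G64040) of photosystem I differed by 0.66 and ATPC1 (AT4G04640), the gamma subunit of the chloroplast ATP synthase, by 0.67 ± 0.18. ATPC1 was not called without replicate 3. Of the 5 called genes, PSBW, PSAN, ATPC1 and PSBY are also among the 5 leaf markers called higher, of 7 tested, so these are not separate evidence.

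Of 20 listed light-harvesting genes 3 were tested, and 1 of these was called higher. LHCB4.3 (AT2G40100), a minor antenna protein of photosystem II, read 5.62, 6.30 and 6.46 in small and 6.95, 7.49 and 7.53 in large polysomal RNA, a difference of 1.20 ± 0.19 (SE, n = 3 pairs; limma adjusted p 2e-05). Its relatives LHCB4.1 and LHCB4.2 differed by 0.12 ± 0.15 and 0.20 ± 0.19 and were not called. Their small polysomal means, 13.82 and 13.09, were far above that of LHCB4.3, 6.13. Whether brightness bears on the contrast was not tested.

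Of 4 tested members of the Calvin-Benson cycle 1 was higher, with a list median of 0.25. SBPASE (AT3G55800), sedoheptulose-bisphosphatase, differed by 0.57 ± 0.16 (SE, n = 3 pairs; limma adjusted p 0.0072) and was not called without replicate 1 or without replicate 3. RCA, rubisco activase, had 0.20 ± 0.21, PRK, phosphoribulokinase, had -0.01 ± 0.20 and AT1G56190 had 0.30. In photorespiration 3 of 5 tested members were higher, with a median of 0.43. AT1G11860 had the largest difference there, from 12.16, 12.15 and 12.18 to 12.78, 12.90 and 13.41. HPR (AT1G68010), hydroxypyruvate reductase, had 0.48 ± 0.16 and AT1G80380 had 0.43. The call of HPR was lost when any 1 replicate was left out, and that of AT1G80380 without replicate 1 or without replicate 3, and also without the block, with the 6 arrays alone and with cyclic loess scaling. AT1G32470 (0.16) and AT2G35120 (0.32) were not called. None of 3 tested genes of starch breakdown and SnRK1 signalling was called by limma, namely DPE1 at -0.09, AKINBETA1 at 0.12 and the phosphoglucan, water dikinase AT5G26570 at 0.36.

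The machinery of protein synthesis and breakdown was mixed. Of 39 tested cytosolic 40S ribosomal protein genes, listed by locus code, 12 were higher and 4 lower, with a median of 0.24. Of 73 for the 60S subunit 15 were higher, 20.5% against 19.7% of all genes, and 9 lower, 12.3% against 21.6%. Their median of 0.05 turned to -0.08 with cyclic loess scaling and to -0.04 without replicate 1. Together the 112 genes thus had 27 higher and 13 lower, and without replicate 1 these counts were 12 and 12, while without replicate 3 they were 24 and 4. AT3G04840 of the 40S list read 8.57, 8.55 and 8.85 in small and 9.99, 10.03 and 9.77 in large polysomal RNA (1.27 ± 0.18), and AT1G48830 differed by 1.05. On the lower side, AT4G39200 had -0.85 ± 0.18 and AT5G27700 had -0.69 ± 0.19, the latter not called without replicate 3.

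In the 60S list AT2G47610 and AT1G80750 stood highest, at 1.04 ± 0.21 and 1.02 ± 0.20. AT2G40010 fell by 1.95 ± 0.28 to values of 2.57, 2.62 and 2.55, close to the lowest value of the table, 2.20, so its difference is bounded by that end of the scale. AT3G02190 fell by 1.47 ± 0.26, from 7.74, 7.66 and 7.53 to 6.50, 6.54 and 5.48. Ribosomal protein genes come in near-identical copies, which a probe set may not tell apart.

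Plastid ribosomal proteins encoded in the nucleus had 6 of 9 tested members higher and 1 lower, with a median of 0.48. Only 4 were higher without the block, with cyclic loess scaling, without replicate 1 or without replicate 3. AT1G64510 read 8.99, 8.94 and 9.31 in small and 10.76, 10.35 and 10.76 in large polysomal RNA (1.54 ± 0.27), and AT5G24490 differed by 1.09 ± 0.15. AT1G29070 had -0.47 with a limma adjusted p of 0.044, a call lost without replicate 2, without replicate 3, without the block, with median centring and with dim genes kept. Among 4 tested translation factors EIF4A-2 (AT1G54270), an RNA helicase of initiation, had 0.44 ± 0.15 and was not called when any 1 replicate was left out, without the block or with cyclic loess scaling. AT5G12110 had 0.49, AT2G40290 had 0.26 and AT5G19510 had -0.30, none of them called.

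Proteasome regulatory particle genes were higher in 4 of 7 tested, with 0 lower and a median of 0.46. Without replicate 1 or without replicate 3 only 2 were higher, and with the 6 arrays alone 1 was lower. RPN12a (AT1G64520), a lid subunit, read 8.49, 8.32 and 8.50 in small and 9.02, 8.86 and 9.26 in large polysomal RNA (0.61 ± 0.16), and AT1G45000 differed by 0.69. The only core particle gene tested, AT1G79210, had 0.21 and was not called. CLPP4 (AT5G45390), a subunit of the chloroplast Clp protease, had the largest rise among the 925 tested nuclear genes to which the gene table gives a symbol. It read 7.80, 7.69 and 8.43 in small and 9.76, 9.51 and 10.15 in large polysomal RNA, 1.83 ± 0.19 (SE, n = 3 pairs; limma adjusted p 4.9e-08).

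Of 11 tested histone genes 6 were higher, 5 were not called and 0 were lower, and 4 were higher without replicate 1 or without replicate 2. They had a median of 0.58 and a median gene length of 1001 bp. HTB2 (AT5G22880), a histone H2B, read 9.89, 9.90 and 10.02 in small and 10.99, 11.42 and 10.85 in large polysomal RNA, 1.15 ± 0.20. HTB4 differed by 0.84 and AT1G06760 by 0.90 ± 0.16. HTB1 (0.74) was not called without replicate 2 and HTB11 (0.62) not without replicate 1 or without replicate 2. Near-identical H2B copies may share probe signal. ASF1B (AT5G38110), a chaperone that hands histones to new DNA, lay on the other side, falling by 1.77 ± 0.21 from 8.31, 8.33 and 8.21 to 6.70, 6.67 and 6.17.

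Genes whose upstream open reading frame encodes a conserved peptide, a kind of leader known to hold back translation, had 1 of 9 tested members higher and 2 lower, 22.2% against 21.6% of all genes. The list median was -0.21, and -0.05 without replicate 3. PMEAMT (AT1G48600), a methyltransferase of phosphocholine synthesis, rose from 9.51, 9.67 and 9.13 to 10.07, 10.45 and 10.50 (0.90 ± 0.19). BZIP53 (AT3G62420), a transcription factor repressed by sucrose through such a leader, had -0.60 ± 0.18, and AT3G25570 had -0.85 ± 0.27. Both lower calls were lost without replicate 3, the first also without the block and the second also with dim genes kept. Neither GI (-0.10) nor AT5G52660 (0.33), the tested members of the clock list, was called, and GI lay at 2.20 to 2.36 on all 6 arrays, near the lowest value of the table. Hsp70-2, the tested chaperone, had 0.04. Cellulose synthases and plasma membrane proton pumps had 0 tested members.

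**Figure D2:**
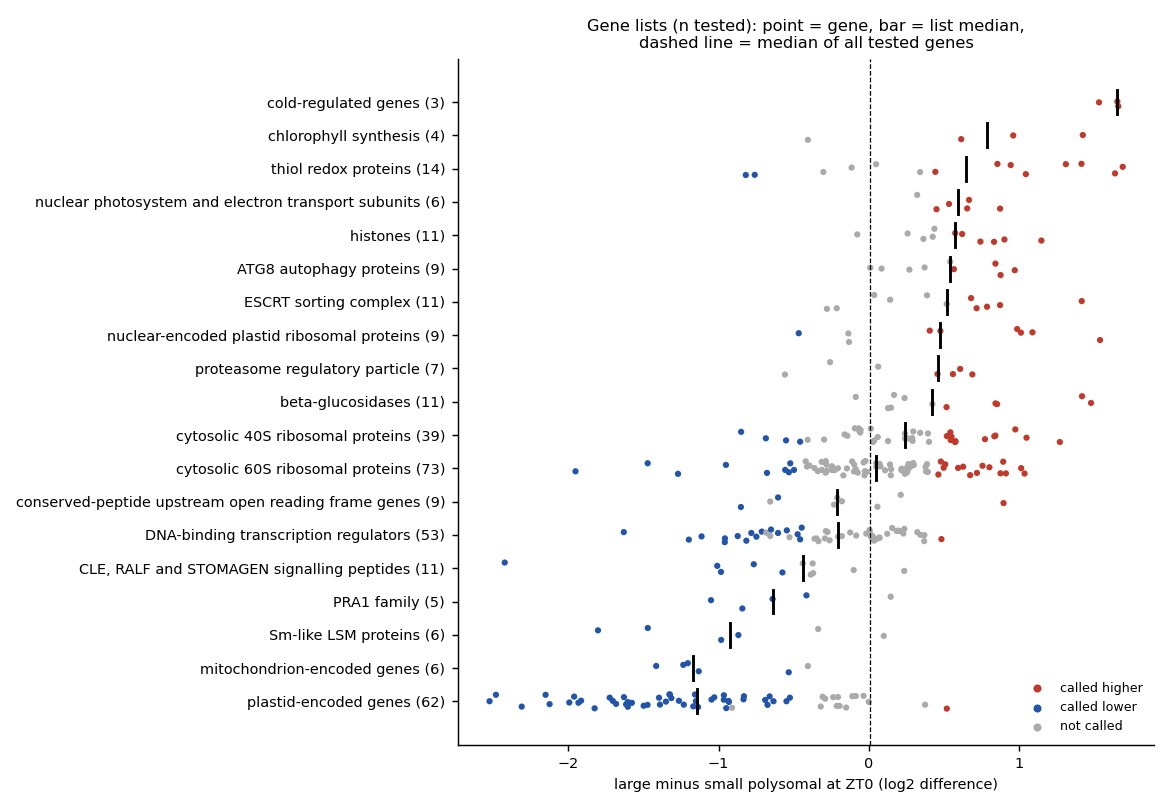
Large minus small polysomal difference at ZT0 (horizontal axis, log2) of the tested members of 19 gene lists (rows, with the number tested). Points are coloured by call, bars are list medians and the dashed line is the median of all tested genes, 0.01. Cold-regulated genes (median 1.66) stand at one end and the organelle-encoded genes at the other.

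Chloroplast-encoded transcripts were lower in large polysomes. Of 62 tested plastid-encoded genes 47 were lower and 1 was higher, with a median of -1.14 against 0.01 for all genes and pair medians of -0.95, -1.15 and -1.28. psbE, which encodes a cytochrome b559 subunit of photosystem II, read 6.27, 7.72 and 6.52 in small and 4.13, 4.96 and 3.84 in large polysomal RNA, a fall of 2.53 ± 0.32 (SE, n = 3 pairs; limma adjusted p 7e-07). petG, for a small subunit of the cytochrome b6f complex, fell by 2.48 ± 0.37 to 2.79, 2.61 and 2.20, at the lower end of the scale. rbcL, for the large subunit of rubisco, had 8.98, 11.09 and 10.51 in small and 7.26, 9.49 and 8.71 in large polysomal RNA. The groups of rbcL overlap, yet every pair fell, by a mean of 1.71 with a limma SE of 0.30. psbA, for the D1 protein of photosystem II, fell by 1.40 ± 0.24. psaB of photosystem I was the exception at 0.52 ± 0.21, with an adjusted p of 0.047 that was lost when any 1 replicate was left out, without the block, with cyclic loess scaling and with dim genes kept.

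Most of these calls needed the pairing by replicate number. Plastid-encoded genes had a mean of 8.70, 10.08 and 9.54 on the small polysomal arrays of replicates 1, 2 and 3 and of 7.82, 9.01 and 8.26 on the large polysomal ones, so replicates differed as much as fractions did. Without the replicate block 8 of the 62 were called lower and 0 higher, petG, rbcL and psbA not among them. Mitochondrion-encoded genes had 5 of 6 tested members lower, with a median of -1.17, and 1 of 6 without the block. nad1, for a subunit of complex I, fell by 1.24 ± 0.31 and ccb452, named for cytochrome c biogenesis, by 1.42 ± 0.28, the latter not called without the block.

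The polyadenylated control RNAs of the array, bacterial sequences with an added tail, are not plant transcripts and were also lower. Their mean over 12 probe sets was 5.53, 6.37 and 5.80 on the small polysomal and 4.36, 4.43 and 3.77 on the large polysomal arrays, a difference of -1.71 ± 0.47 (SD, n = 3 pairs). The labels do not say whether or when these controls were added. The hybridisation controls, added in the standard protocol after labelling, differed by -0.21 ± 0.04 (SD, n = 3 pairs). The 3′ minus 5′ signal of GAPDH, a sign of RNA quality, differed by -0.59 ± 0.22 (SD, n = 3 pairs). It was below 0 in 11 of 12 pairs over the day. The same signal of actin did not move alike, at 0.06 ± 0.41 (SD, n = 3 pairs) and below 0 in 3 of 12 pairs. Its 5′ values, 2.20 to 3.22 on the 6 arrays, were near the lower end of the scale. The part of these controls in the results was not tested. Labelling began from oligo(dT), which binds adenine tails.

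**Figure D3:**
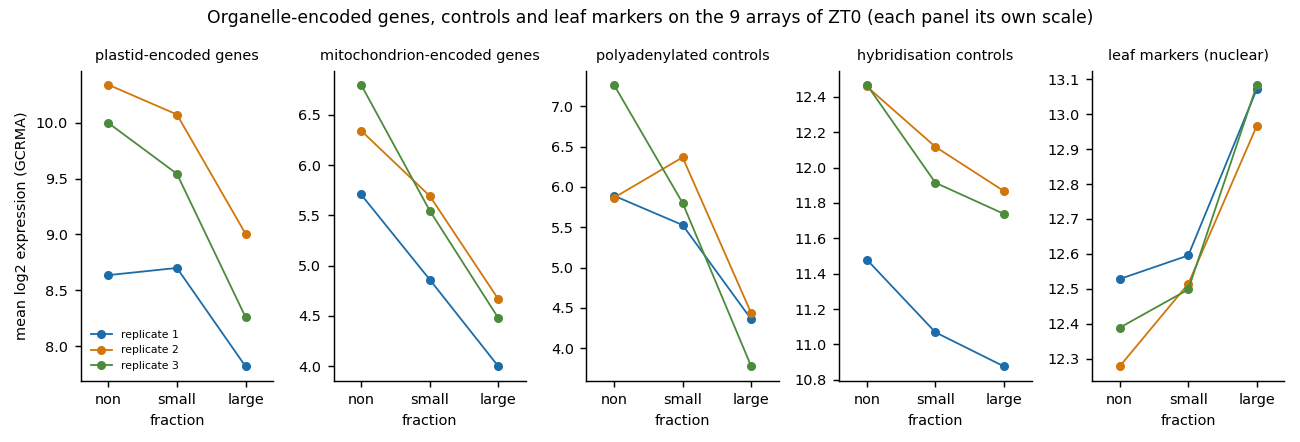
Mean log2 expression (vertical axes, each on its own scale) of plastid-encoded genes, mitochondrion-encoded genes, polyadenylated controls, hybridisation controls and nuclear leaf markers in the 3 fractions of ZT0 (horizontal axis), 1 line per replicate number. From small to large polysomal RNA the first 4 panels fall in 3 of 3 pairs and the leaf markers rise in 3 of 3.

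Thiol redox proteins, which use paired cysteines to switch or repair other proteins, were mostly higher. This family and those of the next paragraphs were gathered by gene symbol after the values were seen, so their counts are descriptions. The gene table gives a symbol to 925 of the 6774 tested nuclear genes, so family members known by locus code alone may be missing. Of 14 tested thiol redox genes 8 were higher and 2 lower, with a median of 0.65. PRXIIF (AT3G06050), a mitochondrial peroxiredoxin, read 6.67, 6.32 and 6.68 in small and 8.34, 8.35 and 8.06 in large polysomal RNA, 1.69 ± 0.20 (SE, n = 3 pairs; limma adjusted p 1.9e-07). TRXF2 (AT5G16400), a thioredoxin that activates Calvin-Benson enzymes in the light, differed by 1.42 ± 0.17, and the glutaredoxin GRXC2 by 1.31 ± 0.20. MSRB9, a methionine sulfoxide reductase, differed by 1.64 ± 0.22, while MSRA5 had -0.82 ± 0.18. The thioredoxins TO1 and TO2 parted, at 1.05 ± 0.16 and -0.76 ± 0.17, both past the threshold.

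The ESCRT complex, which buds vesicles into the multivesicular body, had 5 of 11 tested members higher, 0 lower and a median of 0.52. VPS2.1 (AT2G06530) rose from 8.36, 8.29 and 8.59 to 10.05, 9.84 and 9.61, by 1.42 ± 0.18, and SNF7.1 by 0.88 ± 0.17. ATG8 proteins, which coat autophagosomes, had 4 of 9 higher and 0 lower, led by ATG8H at 0.97 ± 0.23 and APG8A at 0.88 ± 0.18. Serine carboxypeptidase-like genes had 6 of 13 higher and 1 lower (scpl50, -0.61, a call lost in 4 alternatives), and SCPL49 was 2.46-fold higher. Beta-glucosidases, which free compounds from their sugars, had 5 of 11 higher and 0 lower, with BGLU44 at 1.48 ± 0.17, BGLU25 at 1.42 ± 0.29 and PYK10 at 0.85 ± 0.20. FRO1 (AT5G67590), the FROSTBITE1 subunit of respiratory complex I, rose from 9.38, 9.20 and 9.56 to 11.01, 10.71 and 10.91, and CML30 (AT2G15680), calmodulin-like 30, from 8.17, 8.05 and 8.42 to 9.85, 9.76 and 9.82.

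Sm-like LSM proteins, which form rings that bind RNA in decapping and splicing, had 4 of 6 tested members lower, 0 higher and a median of -0.93. LSM3A (AT1G21190) read 10.18, 10.22 and 9.86 in small and 8.76, 8.36 and 7.72 in large polysomal RNA, a fall of 1.80 ± 0.18 (SE, n = 3 pairs; limma adjusted p 2.8e-08). LSM3B fell by 1.47 ± 0.17 and LSM6A by 0.98 ± 0.20. LSM6B fell by 0.87 ± 0.28 but was not called without replicate 3 or with dim genes kept, and LSM1A (-0.34) and LSM1B (0.10) were not called.

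Signalling peptides of the CLE, RALF and STOMAGEN kinds had 5 of 11 tested members lower and 0 higher, with a median of -0.44 that was -0.17 without replicate 3 and -0.69 without replicate 2. CLE41 (AT3G24770), whose peptide keeps vascular stem cells from becoming xylem, read 8.95, 8.96 and 9.28 in small and 6.66, 7.08 and 6.18 in large polysomal RNA. The 2.42 ± 0.26 fall, 5.37-fold, was the largest among the 925 tested nuclear genes to which the gene table gives a symbol. RALFL32 fell by 1.01 ± 0.19 and STOMAGEN, which promotes stomata, by 0.77 ± 0.17. CLE44 fell by 0.98 ± 0.26 and was not called without replicate 3. CLE21, the fifth, had -0.57 ± 0.23, a call lost in 7 alternatives. The PRA1 family of prenylated Rab acceptors, small membrane proteins of vesicle traffic, had 4 of 5 lower, though 1 of 5 without replicate 3. PRA8 at -1.05 ± 0.23 kept its call there.

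Of 53 tested DNA-binding regulators 16 were lower, 30.2% against 21.6% of all genes, and 1 was higher. Their median was -0.20, and 22 members lay above 0. Without the replicate block 9 of 53 were lower, beside 1111 of all 6845 genes, and 0 higher. NGA1 (AT2G46870), a regulator of leaf margin and style growth, fell by 1.63 ± 0.22, from 6.78, 6.74 and 6.78 to 5.30, 5.55 and 4.55. GT-1, a trihelix factor that binds light-responsive promoters, fell by 1.11 ± 0.16 and WRKY22 by 1.20 ± 0.19, the latter not called without the block. AGL24, a flowering regulator, was the higher member at 0.49 and lost its call in at least 1 alternative.

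Other named genes with large falls came from scattered functions. PLIM2a (AT2G45800), an actin-bundling LIM protein, fell by 1.98 ± 0.24, and SDP1-LIKE (AT3G57140), a relative of the seed oil lipase SDP1, by 1.91 ± 0.25. SBT3.12 (AT4G21326), a subtilase, fell by 1.83 ± 0.27, 2A6 (AT1G03410) by 1.82 ± 0.22 and TBL32 (AT3G11030), of the family that acetylates wall polymers, by 1.73 ± 0.24. GLX2-5 (AT2G31350), a mitochondrial glyoxalase, read 8.21, 8.28 and 7.84 in small and 6.63, 6.82 and 5.78 in large polysomal RNA. In PLIM2a, SDP1-LIKE, SBT3.12, 2A6, TBL32 and GLX2-5, all large polysomal values lay below all small polysomal ones. These genes were chosen for large falls on the same arrays, which makes that likely.

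The 10 largest differences in each direction mostly fell on genes that the gene table gives by locus code alone. AT1G64370 had the largest rise, from 6.43, 6.63 and 6.66 to 9.46, 9.71 and 9.03, or 2.82 ± 0.24 (SE, n = 3 pairs; limma adjusted p 3.9e-09) and 7.08-fold. AT4G19200 (2.47), AT1G04800 (2.25), AT5G64110 (2.20), AT1G32220 (2.15), AT2G43590 (2.10), AT5G44380 (2.06), AT4G29030 (2.05), AT5G46730 (2.00) and AT5G45350 (1.99) followed. AT3G09470 had the largest fall, from 9.63, 9.50 and 9.24 to 6.44, 5.95 and 4.57, or 3.80 ± 0.25 and 13.96-fold. Its probe sets disagreed, and their mean fell by 2.13. AT5G21020 (-3.72), AT2G14460 (-3.63), AT1G53030 (-2.92), AT2G39500 (-2.92), AT1G79170 (-2.65), AT3G48490 (-2.58), AT4G31875 (-2.57), psbE (-2.53) and AT4G05070 (-2.50) came next. In all 20 genes the small and large polysomal groups did not overlap, which their choice by size on these same arrays makes likely. The shortest gene of the 10 that fell was psbE, at 252 bp, and the longest was AT3G09470, at 3118 bp, while the 10 that rose ran from AT4G29030, at 828 bp, to AT5G44380, at 2824 bp.

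Short genes were more often lower in large polysomes. Gene length was taken from the gene table, introns and untranslated parts included, since protein lengths were not at hand. Of 427 tested nuclear genes of up to 1000 bp, 42.6% were lower and 12.4% higher, and of the 6347 longer genes 19.6% were lower and 20.4% higher. The median difference was -0.37 in the short genes, and it was -0.26, -0.19 and -0.68 in pairs 1, 2 and 3. In genes of up to 500 bp 19 of 41 were lower and 0 higher, and in genes over 6000 bp 20 of 239 were lower and 38 higher. Above 1500 bp the medians were flat, between 0.03 and 0.09. Over all 6774 nuclear genes Spearman's rho of length and difference was 0.12, a description across genes of the same arrays, and it was 0.06, 0.03 and 0.23 in the 3 pairs, so its size rests on replicate 3. Among ribosomal protein genes it was 0.22 over 112 genes. CML30, at 647 bp, and HTB2, at 847 bp, were short and rose. Several lists with low medians were short as well, against a median length of 2307.5 bp for all tested genes. Plastid-encoded genes had 525 bp, PRA1 genes 1016 bp, signalling peptides 1209 bp and LSM genes 1417.5 bp. DNA-binding regulators, with 2384 bp, were not short. The part of length in these lists was not tested.

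**Figure D4:**
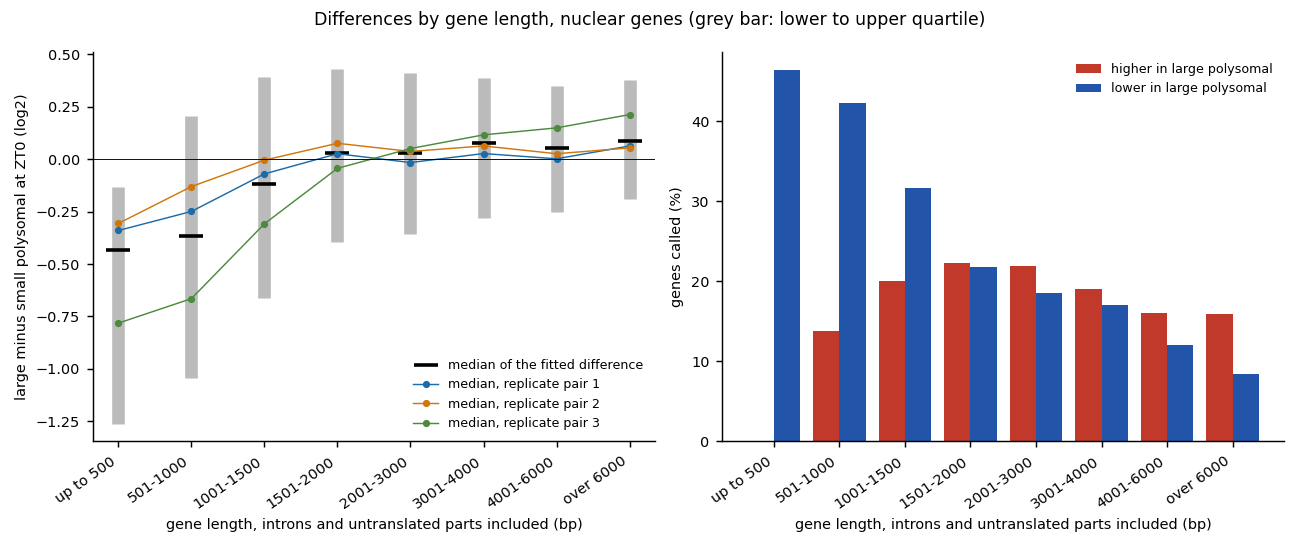
Left, the large minus small polysomal difference at ZT0 (log2) by gene length (bp), with the median, the quartiles and the median of each replicate pair. Right, the percentage of genes called higher or lower in each length class, 46.3% lower and 0.0% higher in genes of up to 500 bp.

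The non-polysomal samples place these differences in a longer series, though the contrasts share the small polysomal arrays. In the fit of the same genes, 1521 rose and 1341 fell from the non-polysomal to the small polysomal fraction, 22.2% and 19.6% of those tested. HEMB1, COR47 and HTB2 rose at both steps, the first by 1.04 ± 0.18 from non-polysomal to small polysomal and by 1.43 ± 0.18 from small to large polysomal RNA. GLX2-5 and COR27 fell at both, COR27 by 1.87 ± 0.18 and 1.67 ± 0.18. CLE41 and NGA1 stood highest in small polysomes, CLE41 at 1.17 ± 0.26 above the non-polysomal value and NGA1 at 1.35 ± 0.22. PORB (-0.05) and FRO1 (-0.21) had small steps from non-polysomal to small polysomal RNA that were not called, before their rise.

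Many of the genes called at dawn were called in the same direction at other times of day. The ZT0 arrays share no sample with those of ZT6, ZT12 and ZT18. At ZT6 1370 genes were higher (20.0%) and 1690 lower (24.7%), at ZT12 1274 (18.6%) and 1546 (22.6%), and at ZT18 1398 (20.4%) and 1363 (19.9%). Of the genes higher at dawn, 69.2%, 69.6% and 72.3% were also called higher at ZT6, ZT12 and ZT18, which is 68.1%, 73.6% and 69.7% of those times' own lists. Of the genes lower at dawn, 78.2%, 77.3% and 69.7% were also called lower, or 68.3%, 73.8% and 75.5% of the other lists. At all 4 times 701 genes were higher and 843 lower, 52.0% and 57.1% of the dawn calls. Across the 6845 genes Pearson's r of the dawn difference was 0.87 with ZT6, 0.89 with ZT12 and 0.87 with ZT18, a description over genes measured on 1 array design. LSM3A fell by 1.66 and 1.58 at ZT6 and ZT12, and PRXIIF rose by 1.64 and 1.70.

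Some gene groups moved in size between times without a test over the group. The median of plastid-encoded genes was -0.68 at ZT6, -1.07 at ZT12 and -1.59 at ZT18, with -1.14 at dawn between the last pair. The polyadenylated controls differed by -0.99, -1.36 and -1.42 at those times and by -1.71 at dawn. Cold-regulated genes had medians of 1.18 at ZT12 and 1.66 at ZT18. The 60S ribosomal proteins had -0.15, -0.03 and 0.28 at ZT6, ZT12 and ZT18.

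A test of dawn against the mean of the other times called 2 of 6845 genes (0.0292%), both higher, with an unadjusted p under 0.05 in 527. AT1G69570 differed by 0.57 at dawn and by -0.55, -0.96 and -1.12 at ZT6, ZT12 and ZT18, so dawn exceeded the mean of the others by 1.44 ± 0.23 (SE; limma adjusted p 0.007). Its small polysomal values were 6.47, 6.46 and 6.89 and its large polysomal values 7.13, 6.74 and 7.65 at dawn, and these groups overlap. AT5G38890 read 4.79, 4.73 and 4.73 in small and 6.27, 6.25 and 5.68 in large polysomal RNA, a difference of 1.31 at dawn against 0.09, 0.48 and -0.07 later, with 1.15 ± 0.21 between them (adjusted p 0.027). The small polysomal values of AT5G38890 in replicates 2 and 3 and its non-polysomal value in replicate 2 were identical at dawn, 4.7294. At ZT6 its pair of replicate 2 differed by 0.0. Whether these are background readings, which would limit its differences at the other times, was not tested. In both genes all 3 dawn pairs lay above all 9 pairs of the other times, which a call from these same pairs makes likely. Without the replicate block neither direction had a call, and leaving out a replicate left 0 to 1. With a trended robust variance 4 were higher and 2 lower, and with dim genes kept 9 were lower.

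Against single times the test called 2 genes for ZT6, 2 for ZT12 and 5 for ZT18 (0.0292%, 0.0292% and 0.073% of those tested), with an unadjusted p under 0.05 in 640, 429 and 524. AT2G34080 had -2.08 at dawn and -0.13 at ZT6, and AT1G17160 had -0.48 and 0.76. AT4G31875 had -2.57 at dawn and -0.91 at ZT12. ndhE, a plastid-encoded subunit of the NDH complex, had -0.31 at dawn and -1.82 at ZT18, and AT2G43610 had -0.21 and 1.53. AT5G55010 had -0.59 and -2.16, but its small polysomal mean at dawn, 3.23, lay too near the lowest value of the table, 2.20, for a fall as large as that of ZT18 to be measured.

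**Figure D5:**
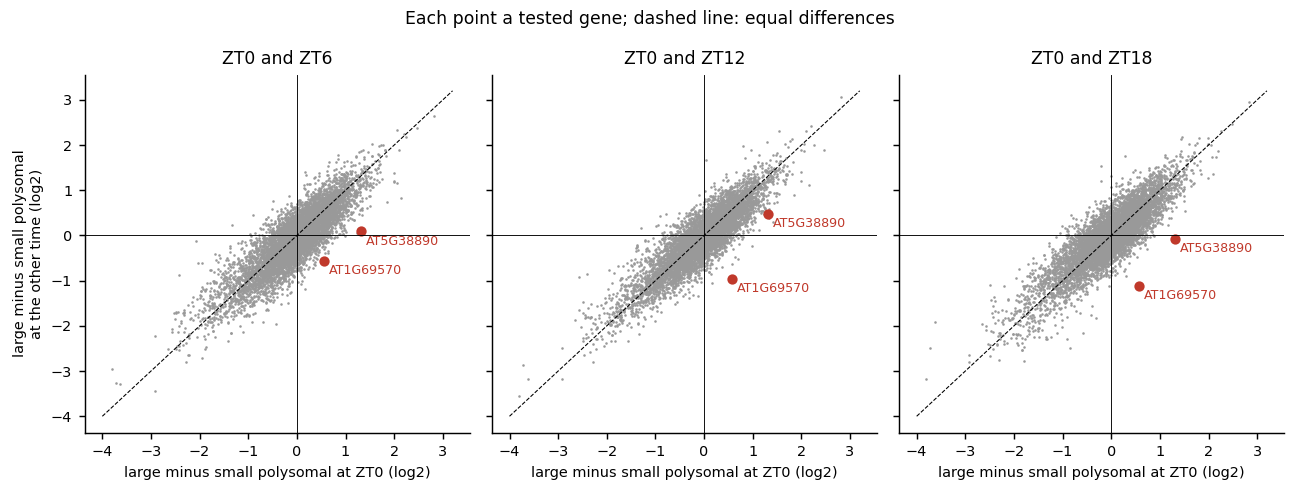
Large minus small polysomal difference (log2) of each tested gene at ZT0 (horizontal axes) and at ZT6, ZT12 and ZT18 (vertical axes), with the line of equal differences dashed. Most points follow the line (Pearson's r 0.87 to 0.89), and AT1G69570 and AT5G38890, in red, lie below it in the 3 panels.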

How the data were processed

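Messenger RNA of 36 samples was measured on Affymetrix arrays. According to the submitters' processing notes, the authors summarised each probe set with GCRMA (affy 1.42.3, R 3.1), and the deposited unit is log2. Of 22810 probe sets, 13513 paired with 1 gene in the probe table, and 8730 that it does not list were left out. For symbols and lengths, 13333 of 13355 genes were matched to the RefSeq gene table. limma 3.58.1 (R 4.3.3) fitted 12 groups with the 12 extracts (time by replicate number) as a block, leaving 16 residual degrees of freedom. Calls had a Benjamini-Hochberg adjusted p under 0.05, 2-sided. Same-numbered small and large polysomal samples of ZT0 deviated together (r 0.43, 0.33 and 0.26, against -0.23 to -0.07 for unlike numbers), so numbers pair the fractions. There is no read depth, and the number of arrays limits the precision. Simulated data had 200 changed genes among 6845 and noise independent between genes. There, 84 of 100 genes with a log2 difference of 1 and 24 of 100 with 0.5 were recovered. The real comparison called 2824 genes (41.3%), and the adjustment of p depends on that share. The simulated rates therefore do not give the recovery in the real comparison.

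The comparison and the gene lists were chosen with earlier results of these data known. Named genes are the 10 largest calls each way with the same sign in every pair, the 2 largest each way in each list, all members of lists with up to 5 tested, and genes whose difference at dawn differed from other times. The 10 nuclear genes each way that bear a symbol, and the families gathered by symbol with their examples, were added after the values were seen, as were LHCB4.3's relatives and the other examples outside this rule. Alternatives were another scaling, filter, probe set rule, variance or design, and leaving out each replicate. Gene length took the place of protein length after the values were seen.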

Additional observations from a re-analysis of the deposited data

Results flagged for a closer look

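In 8 genes the large minus small polysomal difference at dawn, set against that at other times, passed limma's test after Benjamini-Hochberg adjustment. AT1G69570 stood above the mean of the other times by 1.44, above ZT12 by 1.53 and above ZT18 by 1.68. AT5G38890 exceeded that mean by 1.15 and ZT18 by 1.38, but whether its repeated reading of 4.7294 at dawn is background was not tested. Against ZT6, AT1G17160 had a change of -1.24 and AT2G34080 of -1.94. Against ZT12, AT4G31875 had -1.66. Against ZT18, the plastid-encoded ndhE had 1.52 and AT2G43610 had -1.75. AT5G55010 had 1.57, but its polysomal values at dawn were 2.41 to 3.48 where the lowest value of the table is 2.20, so the end of the scale limits its fall at dawn and this value does not show a change between times. It passed the filter on dim genes with non-polysomal values of 5.58 to 6.51 at dawn.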

How the results depend on the processing

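Over 12 alternatives none of the 79 called genes named by rule changed direction, and the median of the 112 ribosomal protein genes, 0.08, turned to -0.04 with cyclic loess. Without the replicate block 970 genes were higher and 1111 lower, and 2081 of the 2824 calls stayed. With the 6 arrays alone and the block the counts were 1462 and 1591, with median centring 1521 and 1314, with cyclic loess 1178 and 1660, with dim genes kept 1243 and 1426, and with a minimum mean of 6 they were 1114 and 1093. The share of calls that were higher went from 47.7% to 53.7% with centring and 41.5% with loess. Leaving out 1 replicate gave 917 to 993 higher and 999 to 1229 lower. Of 79 called named genes, 16 lost the call in at least 1 alternative. Genes with a higher difference at dawn than at the other times numbered 0 without the replicate block, 4 with a trended robust variance and 0 to 1 with a replicate left out, and genes with a lower one 9 with dim genes kept and 2 with the trended variance.

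Centring and loess moved the median of all genes to 0.066 and -0.048. With centring, the medians were 0.65 for photosystem subunits and 0.40 for translation factors. With loess they were 0.065 for light-harvesting proteins, 0.46 for photosystem subunits, 0.12 for the Calvin-Benson cycle, 0.31 for photorespiration, 0.24 for translation factors and 0.44 for leaf markers. With dim genes kept, translation factors had 0.26 and mitochondrion-encoded genes -0.33, the latter -0.53 with a minimum mean of 6 and -0.83 with the mean of probe sets. Leaving out a replicate gave 0.38 to 0.62 for plastid ribosomal proteins and 0.52 to 0.62 for photosystem subunits. Alternatives by protein length were not run, since no protein table was used here. Apart from fewer arrays or other genes tested, the cause was not tested.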

Other observations

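Microtubule genes parted. Of 7 tested tubulins, gathered by symbol after the values were seen, 2 were higher and 1 lower. TUB7, a beta-tubulin, differed by 1.40 and TUA6, an alpha-tubulin, by -1.22; probe sets do not always separate tubulin copies. Of 5 SPIRAL1 proteins, which steer cortical microtubules, 3 were lower and 1 higher, with a median of -1.01. The direction of that median depended on the filter: with a minimum mean of 6 the median of the 3 left was 0.37, with 2 higher and 1 lower, and with a mean of 4 over the 6 arrays it was -0.32, with 2 and 2. Expansins and xyloglucan hydrolases, which loosen the cell wall, had 5 of 12 higher and 2 lower, but 1 and 1 without the replicate block, and 6 of the 7 calls were lost in at least 1 alternative. UDP-glycosyltransferases had 5 of 21 higher and 3 lower, 23.8% and 14.3%. Cytochromes P450 had 1 of 11 higher and 3 lower, and 0 and 2 without the block. Of 12 ubiquitin-specific proteases 3 were higher and 1 lower, each of these calls was lost in at least 1 alternative, and without replicate 3 the counts were 0 and 0. Defensin and thionin type peptides had 1 of 7 higher and 1 lower. Over all tested genes 19.7% were higher and 21.6% lower, the background for the counts in this paragraph.

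Transcripts annotated as pseudogenes were also measured. Of 6 transcribed pseudogenes 5 were lower in large polysomal RNA and 0 higher, with a median of -0.89. Of 18 other pseudogenes 6 were lower and 2 higher, with a median of -0.26, against 1458 lower and 1345 higher of 6811 protein-coding genes.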
